A study of Homo sapiens with 14 samples.

Results

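Cohesin is the ring-shaped complex that holds sister chromatids together from DNA replication until anaphase. Its genes and those of its main regulators were followed here in lung adenocarcinoma cells treated with AMG900, an inhibitor of the Aurora kinases. The members were matched by gene symbol, with earlier results of these data known, and all 9 were found among the 26732 symbols listed for both cell lines. There are 5 core subunits (SMC1A, SMC3, RAD21, STAG1 and STAG2) and 4 cycle-regulated factors (ESCO2, CDCA5, PTTG1 and ESPL1). The cells were A549 and H1792, established human lung adenocarcinoma lines for which the labels give no engineered allele, and their RNA was sequenced. The lines were kept in different serum-containing media. Cells received either 0.1 µM AMG900 or DMSO, its solvent, for 48 h, and the groups held 4 DMSO and 4 AMG900 libraries of A549 and 3 of each of H1792. The labels' protocol gives 3 replicates for each treatment, but 4 are listed in A549 and all were used. Nothing in the labels says whether replicates were separate passages, so p-values measure the spread between these libraries.

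SMC1A and SMC3 are the paired ATPase arms of the ring, RAD21 is the kleisin that closes it, and STAG1 or STAG2 binds RAD21 as the remaining subunit, in place of each other. ESCO2 acetylates SMC3 during S phase, which makes cohesion lasting, and sororin, the product of CDCA5, then protects the ring from release by WAPL. At anaphase the protease separase, encoded by ESPL1, cuts RAD21 once its inhibitor securin, the product of PTTG1, has been degraded. The core subunits also shape chromatin loops outside mitosis, whereas the transcripts of the 4 regulators are known to rise in cycling cells.

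Total counts per library ranged from 4254644 to 18962883 in A549 and from 42760874 to 79902934 in H1792. Levels are given as CPM, the read count of a gene relative to a library total scaled by the TMM method of edgeR, and a gene was called when its edgeR quasi-likelihood test, adjusted by Benjamini-Hochberg over all genes tested in that comparison, had an FDR below 0.01. A549 DMSO replicate 1 stood apart from the other A549 DMSO libraries, at 50.6 on the second principal component against -20.7 to -18.7, and for SMC3, the member it moved most, values are also given without it. GC-rich transcripts tended to have higher log2 fold changes with AMG900 (across genes, Spearman's rho was 0.499 for A549 and 0.481 for H1792, and genes are not independent replicates), so calls were also made with a correction for GC content. The carcinoma keratins KRT7, KRT8 and KRT18 had at least 7097 counts in every library of both lines, whereas EPCAM, an epithelial adhesion gene, had 1 to 10 counts in A549 and 143 to 281 in H1792. KRT19, a further keratin of the list, had 150 to 1333 counts in A549 and 282 to 783 in H1792. It was called higher with AMG900 in both lines, by 1.58 log2 units in A549 and 0.54 in H1792. KRT7, KRT8 and KRT18 were called higher in A549 (0.31 to 0.39) and not called in H1792. Of 7 markers of other cell types, PTPRC, CD3E and ALB, the defining genes of leukocytes, T cells and hepatocytes, had at most 4 counts in any library. CD68, a macrophage marker that other cells also express, rose with AMG900 by 1.09 log2 units in A549 and 0.78 in H1792. Of the endothelial markers, PECAM1 (0.76) and CDH5 (2.29) rose in H1792 and VWF, with 15 to 517 counts with DMSO, was at -2.72 (adjusted p = 0.0618), and in A549 all 3 had at most 64 counts and were not tested. The summed level of the 7 markers, most of it CD68, was 58.5 to 85.6 CPM with DMSO and 149 to 171 CPM with AMG900 in A549, and 101 to 129 CPM and 175 to 200 CPM in H1792. Without CD68 the sum was 0.22 to 5.92 CPM with DMSO and 0.52 to 1.32 CPM with AMG900 in A549. In H1792 that sum was 3.93 to 16.2 CPM with DMSO and 8.13 to 9.18 CPM with AMG900, so the ranges overlapped in both lines. The part of these markers in the results was not tested.

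As counted, the transcripts of all 5 core subunits were lower with AMG900 in both lines. With the correction for GC content, only SMC1A and RAD21 stayed called among them, in both lines. In A549 the log2 fold changes lay between -1.61 for SMC1A and -0.58 for STAG1, and in H1792 between -0.88 for RAD21 and -0.47 for SMC3. All 9 members were called lower in A549, where 17.8% of the 13174 genes tested were called lower and 17.2% higher. In H1792, 7 of the 9 were called lower, against 18.8% of 15017 genes called lower and 16.2% called higher. No member was called higher by edgeR or DESeq2 in either line. At an unadjusted p under 0.05, edgeR placed 2 of them higher in H1792 (PTTG1 and ESPL1) and 0 in A549. In A549 the AMG900 and DMSO libraries of all 9 members did not overlap, as for 43.9% of all genes tested, and in H1792 those of 8 members did not overlap, as for 59.7%. In bulk RNA, fewer cells of a kind and less RNA per cell cannot be told apart.

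**Figure D1:**
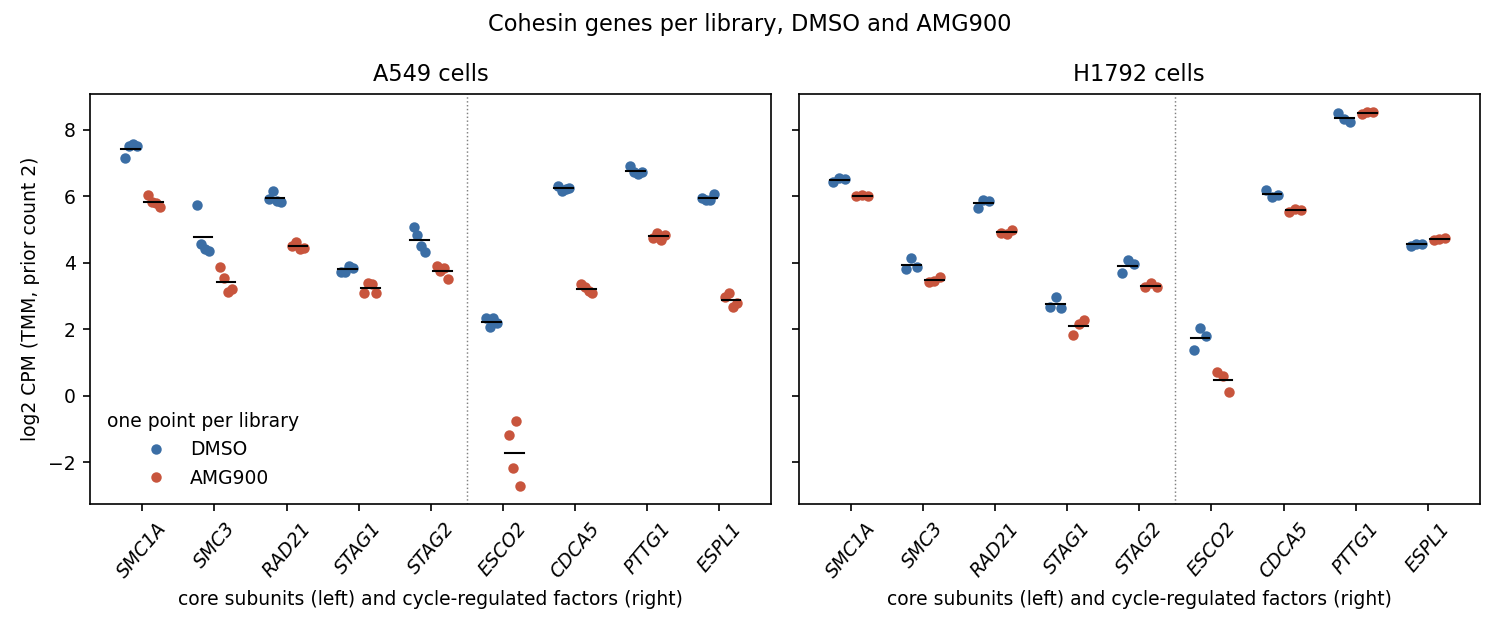
Level of the 9 genes in each of the 14 libraries as log2 CPM (vertical axis, TMM scaling within a line, prior count of 2), in A549 on the left and H1792 on the right. Each point is a library and each bar is a group mean. The A549 AMG900 libraries lie below all A549 DMSO libraries for every gene, and in H1792 PTTG1 and ESPL1 do not fall.

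SMC1A, on chromosome X from 53401070 to 53449677 (GRCh37, minus strand), stood at 141, 182, 189 and 182 CPM in the 4 A549 DMSO libraries and at 65.1, 56.4, 55.8 and 51.2 CPM with AMG900. Replicate 1 was the lowest DMSO library and still had more than 2 times the level of the highest AMG900 library. The log2 fold change was -1.61 ± 0.10 (SE, n = 4 and 4, edgeR adjusted p = 1.06e-08). In H1792 the DMSO libraries gave 85.8, 94.2 and 91.4 CPM and the AMG900 libraries 64.7, 65.4 and 64.3 CPM. The groups were again apart, with a smaller change of -0.48 ± 0.06 (SE, n = 3 and 3, edgeR adjusted p = 7.27e-05). SMC1A kept its call in both lines under every alternative tried.

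SMC3, the partner of SMC1A, lies on chromosome 10 from 112327442 to 112365806 on the plus strand. It stood at 52.9, 23.7, 21.0 and 20.2 CPM in A549 DMSO libraries and at 14.4, 11.5, 8.52 and 9.11 CPM with AMG900. The groups did not overlap, but DMSO replicate 1 was far above the other DMSO libraries. The log2 fold change was -1.38 ± 0.27 (SE, edgeR adjusted p = 8.31e-04), and -1.01 without that library (adjusted p = 3.66e-06). In H1792, 13.9, 17.6 and 14.7 CPM with DMSO compared with 10.6, 11 and 11.8 CPM with AMG900, which is -0.47 ± 0.10 on the log2 scale (adjusted p = 0.00367). The H1792 call was lost without AMG900 replicate 1, AMG900 replicate 2 or DMSO replicate 3 (-0.50 to -0.43, adjusted p 0.0108 to 0.0233) and in the fit of all 14 libraries (-0.46, adjusted p = 0.143). With a correction for GC content it was 0.069 in H1792 (adjusted p = 0.482) and -0.86 in A549 (adjusted p = 0.0144), so neither call remained.

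RAD21, the kleisin that separase cuts, is encoded on chromosome 8 from 117858173 to 117887015 on the minus strand. The A549 DMSO libraries held 60.2, 71.4, 57.2 and 56.8 CPM and the AMG900 libraries 22.7, 24.4, 21.0 and 21.8 CPM. H1792 had 50.3, 59.2 and 57.3 CPM with DMSO and 29.7, 29.1 and 31.6 CPM with AMG900. No library of 1 group reached the other group in either line. The log2 fold change was -1.45 ± 0.10 in A549 (SE, edgeR adjusted p = 4.88e-08) and -0.88 ± 0.08 in H1792 (adjusted p = 1.20e-05), the largest fall of a core subunit in that line. Both calls held with a GC correction, at -1.02 and -0.54. RAD21 shares 576 exonic bases with UTP23 on the opposite strand and 271 with RAD21-AS1, and the sources used here do not state whether counting used strand.

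STAG1 and STAG2 fell least among the core subunits of A549. STAG1 (chromosome 3, 136055078 to 136471245, minus strand) gave 13.2, 13, 14.8 and 14.2 CPM with DMSO and 8.31, 10.2, 10.1 and 8.34 CPM with AMG900, and the groups were apart. Its log2 fold change of -0.58 ± 0.14 (SE, edgeR adjusted p = 0.00331) lost the call without AMG900 replicate 1 or 4 or DMSO replicate 3 or 4 (-0.57 to -0.53, adjusted p 0.0111 to 0.0138) and with the GC correction (-0.16, adjusted p = 0.361). In H1792 STAG1 gave 6.31, 7.82 and 6.25 CPM with DMSO and 3.51, 4.39 and 4.81 CPM with AMG900. That change of -0.69 ± 0.15 (adjusted p = 0.00298) lost its call without AMG900 replicate 1 (-0.56, adjusted p = 0.0175) or 2 (-0.71, adjusted p = 0.0113), and with the GC correction (-0.34, adjusted p = 0.0461). STAG1 shares 1661 exonic bases with PCCB on the opposite strand, the largest such overlap among the members.

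STAG2, the other form of the subunit, lies on chromosome X from 123094062 to 123556514 on the plus strand. It stood at 33.8, 28.3, 22.4 and 19.8 CPM in A549 DMSO libraries and at 14.8, 13.2, 14.2 and 11.2 CPM with AMG900. In H1792 it stood at 12.8, 17.0 and 15.4 CPM with DMSO and at 9.66, 10.4 and 9.55 CPM with AMG900. All AMG900 libraries were lower than all DMSO libraries, although the DMSO libraries were spread more widely. The log2 fold changes were -0.94 ± 0.16 (SE, edgeR adjusted p = 2.87e-04) in A549 and -0.61 ± 0.11 (adjusted p = 0.00106) in H1792. With the GC correction they were -0.42 (adjusted p = 0.0228) and -0.021 (adjusted p = 0.848), and neither was called.

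All 4 cycle-regulated factors fell in A549, and in H1792 they parted from each other. As counted, ESCO2 and CDCA5 fell in both lines, whereas PTTG1 and ESPL1 fell in A549 and were not called in H1792. The 4 log2 fold changes ran from -4.42 to -1.97 in A549 and from -1.27 to 0.16 in H1792.

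ESCO2, the S-phase acetyltransferase (chromosome 8, 27629466 to 27670157, plus strand), was the scarcest member. In A549 it had 21, 44, 65 and 74 counts with DMSO and 3, 1, 8 and 0 counts with AMG900, which is 4.93, 4.01, 4.86 and 4.39 CPM against 0.283, 0.0702, 0.432 and 0 CPM. A count of 0 in AMG900 replicate 4 allows up to 3 counts, counting error alone considered. The log2 fold change of -4.42 ± 0.49 (SE, edgeR adjusted p = 4.83e-06) rests on these few reads on the treated side, and was -5.35 without AMG900 replicate 3 and -4.00 without AMG900 replicate 4. In H1792, 2.54, 4.08 and 3.44 CPM with DMSO compared with 1.62, 1.48 and 1.04 CPM with AMG900. The groups did not overlap, and the change of -1.27 ± 0.23 (adjusted p = 0.00109) became -0.73 (adjusted p = 0.0126) with the GC correction and was then not called.

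CDCA5, which encodes sororin, lies on chromosome 11 from 64833772 to 64851636 on the minus strand. The A549 DMSO libraries gave 79.4, 70.9, 74.5 and 75.3 CPM, and the AMG900 libraries 10.0, 9.55, 8.74 and 8.34 CPM. That is a log2 fold change of -3.04 ± 0.10 (SE, edgeR adjusted p = 1.51e-11), or 8.21-fold lower, with little spread inside either group. In H1792 the values were 72.1, 63.4 and 65.6 CPM with DMSO and 46.1, 48.5 and 48.1 CPM with AMG900, a change of -0.50 ± 0.06 (adjusted p = 1.43e-04). CDCA5 remained called in both lines with the GC correction, at -3.24 and -0.69.

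PTTG1, which encodes securin, lies on chromosome 5 from 159848862 to 159855746 on the plus strand. In A549 it fell from 120, 105, 102 and 107 CPM with DMSO to 26.7, 29.8, 25.6 and 28.4 CPM with AMG900, a log2 fold change of -1.97 ± 0.09 (SE, edgeR adjusted p = 2.52e-10). In H1792 its levels were 361, 318 and 302 CPM with DMSO and 355, 368 and 368 CPM with AMG900. DMSO replicate 1 lay between the AMG900 libraries, so the groups overlapped, and the change of 0.15 (95% interval 0.0062 to 0.30, adjusted p = 0.0769) was not called. Without H1792 DMSO replicate 1 it was 0.21 with an adjusted p of 0.0011, which would be called higher. With the GC correction it was 0.24 (adjusted p = 0.0133), and was not called.

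ESPL1, which encodes separase, the enzyme that securin inhibits, lies on chromosome 12 from 53662083 to 53687422 on the plus strand. In A549 it stood at 61.3, 59.4, 58.9 and 66.2 CPM with DMSO and at 7.65, 8.28, 6.20 and 6.79 CPM with AMG900. The log2 fold change of -3.10 ± 0.12 (SE, edgeR adjusted p = 4.19e-11) made it 8.55-fold lower. In H1792 the DMSO libraries gave 22.8, 23.8 and 23.8 CPM and the AMG900 libraries 25.7, 26.3 and 26.6 CPM. All 3 AMG900 libraries were higher, by 0.16 on the log2 scale (95% interval 0.015 to 0.30, adjusted p = 0.0639), and the change was not called. With the GC correction the estimate turned to -0.087 (adjusted p = 0.314).

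**Figure D2:**
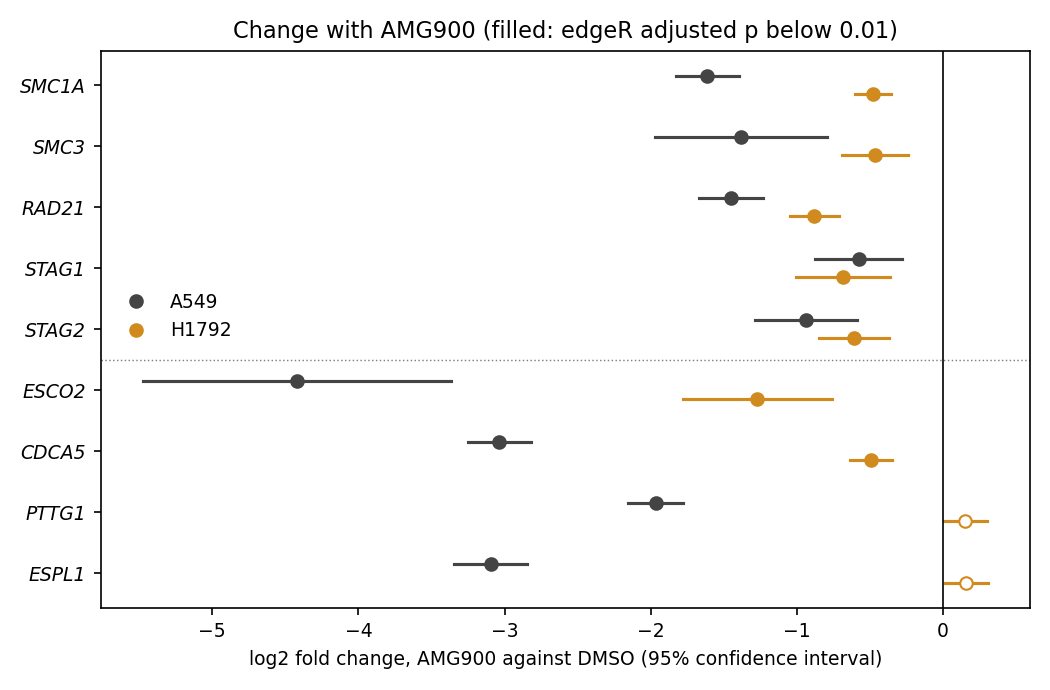
Log2 fold change of AMG900 against DMSO (horizontal axis) for each gene in A549 (dark) and H1792 (orange), with the 95% confidence interval of the edgeR fit. Filled points were called at an FDR below 0.01. The A549 and H1792 intervals lie apart for the 4 cycle-regulated factors and for SMC1A, RAD21 and SMC3, although the SMC3 difference between the lines was not called. They overlap for STAG1 and STAG2. PTTG1 and ESPL1 in H1792 are the only open points.

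Promoters are shown for the cycle-regulated factors that have one in the reference and, beside them, for SMC3 and STAG1, the core subunits with a single window, since many genes that peak in S phase or mitosis carry cell-cycle elements just ahead of their start. RefSeq windows of GRCh38.p14, from 250 bases before to 50 bases after a start, matched 7 of the 9 members, all but RAD21 and ESCO2. Both strands were searched for the cell cycle genes homology region (CHR, TTTGAA or TTCGAA), the CCAAT box (CCAAT) and an E2F site (TTTGGCGC, TTTCGCGC, TTTGCCGC or TTTCCCGC). Of 34943 windows of the same length, 16.4% held a CHR, 34.6% a CCAAT box and 3.30% an E2F site, so a match is a description and not a bound site. The 250 bases before the start are printed 5′ to 3′ in the direction of transcription with matched letters in capitals.
CDCA5 (chr11:65084041-65084290, minus strand): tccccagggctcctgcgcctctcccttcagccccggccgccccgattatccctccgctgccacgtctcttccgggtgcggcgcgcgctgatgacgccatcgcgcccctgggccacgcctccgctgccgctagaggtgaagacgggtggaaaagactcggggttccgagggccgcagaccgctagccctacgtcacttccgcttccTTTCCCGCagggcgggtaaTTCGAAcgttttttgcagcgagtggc
PTTG1 (chr5:160421605-160421854, plus strand): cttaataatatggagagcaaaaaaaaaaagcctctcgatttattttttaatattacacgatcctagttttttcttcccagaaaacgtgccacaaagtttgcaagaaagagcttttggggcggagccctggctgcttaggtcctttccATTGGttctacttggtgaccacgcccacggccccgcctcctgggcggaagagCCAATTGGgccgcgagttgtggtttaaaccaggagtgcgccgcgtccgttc
ESPL1 (chr12:53268049-53268298, plus strand): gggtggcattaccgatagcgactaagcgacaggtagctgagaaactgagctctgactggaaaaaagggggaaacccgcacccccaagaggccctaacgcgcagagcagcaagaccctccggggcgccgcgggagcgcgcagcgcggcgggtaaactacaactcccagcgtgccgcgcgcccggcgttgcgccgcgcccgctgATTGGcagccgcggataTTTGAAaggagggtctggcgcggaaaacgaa
SMC3 (chr10:110567445-110567694, plus strand): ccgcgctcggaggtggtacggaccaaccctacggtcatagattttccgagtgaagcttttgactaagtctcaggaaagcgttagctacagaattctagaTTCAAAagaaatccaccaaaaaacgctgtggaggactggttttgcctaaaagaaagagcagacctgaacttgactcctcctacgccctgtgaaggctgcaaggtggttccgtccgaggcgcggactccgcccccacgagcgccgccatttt
STAG1 (chr3:136752379-136752628, minus strand): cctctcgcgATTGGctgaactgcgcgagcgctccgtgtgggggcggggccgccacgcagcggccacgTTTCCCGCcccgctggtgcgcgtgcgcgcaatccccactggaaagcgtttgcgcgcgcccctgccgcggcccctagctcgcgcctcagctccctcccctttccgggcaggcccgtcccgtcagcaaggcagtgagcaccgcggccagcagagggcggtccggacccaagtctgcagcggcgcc
Counting upstream from -1 at the last base printed, ESPL1 held a CHR that began at -31 and an inverted CCAAT box at -48. CDCA5 held a CHR at -26 and an E2F site at -45. PTTG1 held inverted CCAAT boxes at -103 and -48 and a forward one at -51 that overlaps the latter. Among the core subunits, SMC3 held an inverted CHR at -151, and STAG1 an E2F site at -183 and an inverted CCAAT box at -241. PTTG1 has 2 windows, of which the first is printed and both hold CCAAT boxes. SMC1A holds an E2F site in 1 of 2 windows, and STAG2 a CCAAT box in 2 of 3 windows and an E2F site in 1.

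A model of all 14 libraries with a line-by-treatment term addressed whether A549 and H1792 responded differently. The fall was weaker in H1792 for 6 of 9 members, where 5.37% of 14769 genes were called in that direction and 9.17% in the other. The 4 cycle-regulated factors had the largest differences. Log2 fold changes in H1792 exceeded those in A549 by 3.18 ± 0.14 for ESPL1 (SE, edgeR adjusted p = 2.81e-12), 3.11 ± 0.56 for ESCO2 (4.21e-04), 2.47 ± 0.11 for CDCA5 (6.49e-12) and 2.04 ± 0.11 for PTTG1 (4.82e-11). The ESCO2 difference moved between 2.68 without A549 AMG900 replicate 4 and 4.09 without A549 AMG900 replicate 3. Among the core subunits, SMC1A differed by 1.06 ± 0.13 (adjusted p = 5.30e-06) and RAD21 by 0.49 ± 0.13 (adjusted p = 0.00864). The RAD21 call was lost in 9 of 14 fits that left out 1 library (0.42 to 0.52, adjusted p 0.0144 to 0.0314), namely A549 AMG900 replicates 1, 3 and 4, A549 DMSO replicate 2, all H1792 AMG900 replicates and H1792 DMSO replicates 1 and 3. No difference was called for SMC3 (0.83, 95% interval 0.11 to 1.54, adjusted p = 0.0858, and 0.47 with adjusted p = 0.0795 without A549 DMSO replicate 1), STAG2 (0.25, -0.19 to 0.69, adjusted p = 0.425) or STAG1 (-0.18, -0.61 to 0.25, adjusted p = 0.572), and these intervals do not show equal responses. Over all genes tested the split of calls depended on scaling. Of the genes called by TMM, 63.1% had a lower log2 fold change in H1792 than in A549. That share was 50.5% by the size factors of DESeq2, 51.4% by total counts and 44.8% with the GC correction. Under each of these, 6 members were called with a higher log2 fold change in H1792.

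As a group, the core subunits had a median log2 fold change of -1.38 in A549 and -0.61 in H1792, and the cycle-regulated factors -3.07 and -0.17. The median of all genes tested was -0.0099 in A549 and 0.0087 in H1792. Averaged per library as log2 CPM relative to the DMSO mean of the line, the core stood at -1.18 ± 0.13 (SD, n = 4) and the cycle-regulated factors at -3.00 ± 0.21 in A549 with AMG900. In H1792 with AMG900 the core stood at -0.62 ± 0.07 (SD, n = 3) and the cycle-regulated factors at -0.36 ± 0.07. The order of the groups was thus opposite in the 2 lines, every A549 AMG900 library having the lower mean in the cycle-regulated factors (at most -2.82, core at least -1.34) and every H1792 AMG900 library the lower mean in the core (at most -0.56, cycle-regulated at least -0.44). Corrected for GC content, the core median was -0.86 in A549 and -0.34 in H1792, and the cycle-regulated median was -3.30 and -0.39, so in H1792 the order of the medians turned. ESCO2 at 37.4% GC and ESPL1 at 57.0% GC are the extremes of the cycle-regulated factors, and the core subunits lie between 36.6% for STAG2 and 47.0% for SMC1A.

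**Figure D3:**
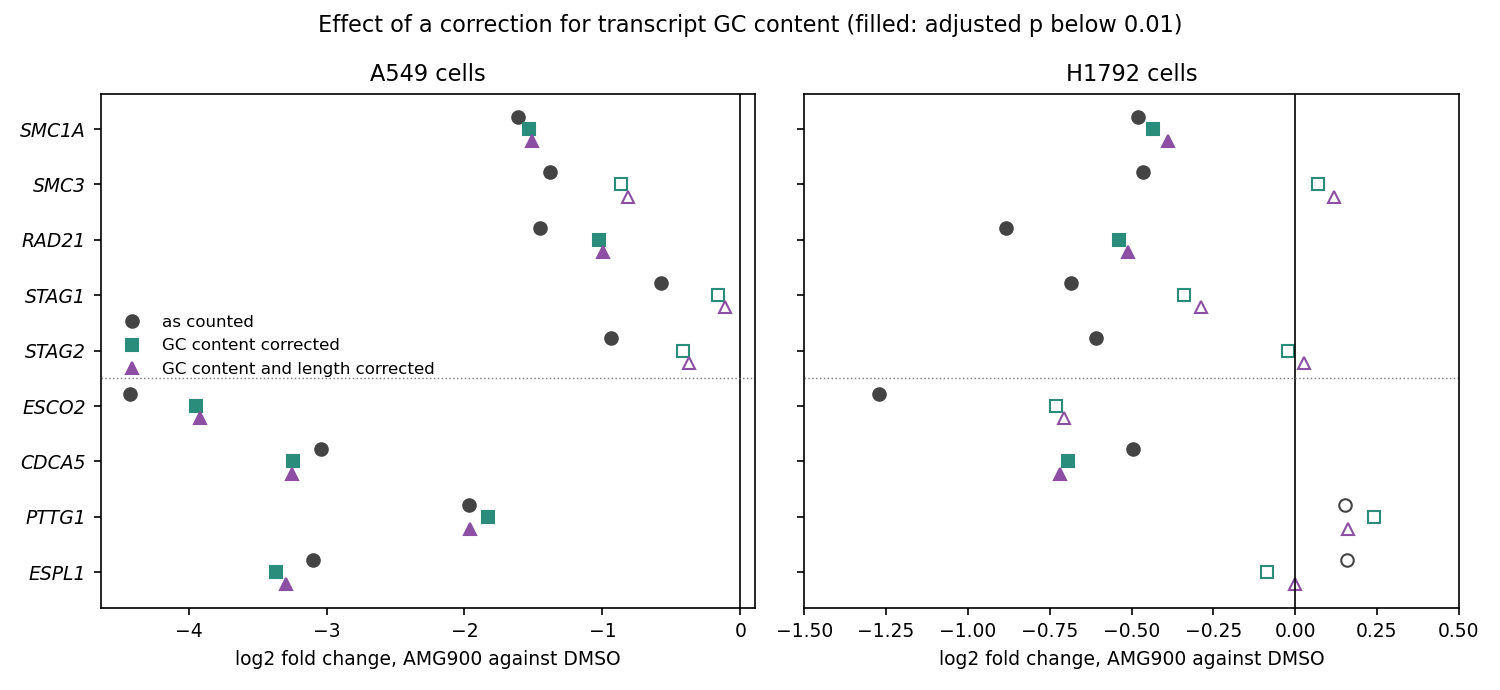
Log2 fold change of AMG900 against DMSO (horizontal axis) as counted (circles), with a correction for transcript GC content (squares) and with a correction for GC content and length (triangles), in A549 and H1792. Filled symbols were called at an FDR below 0.01. The correction moves the GC-poor SMC3 and STAG2 of H1792 to 0.069 and -0.021, and leaves SMC1A, RAD21 and CDCA5 called in both lines.

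With the GC correction 6 members were called lower in A549 (SMC1A, RAD21 and the 4 cycle-regulated factors) and 3 in H1792 (SMC1A, RAD21 and CDCA5). The same correction called 18.3% of 12788 genes lower and 14.7% higher in A549, and 22.7% of 14373 lower and 15.2% higher in H1792. All 6 differences between the lines remained called, where 9.63% of 14227 genes were called in that direction and 7.82% in the other.

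Ratios of a pair of members inside 1 library do not depend on library size or TMM scaling, but they do depend on a GC correction when the pair differs in GC content. An alternative added after seeing the data took the GC trend of each library out of the ratios. The log2 ratio of PTTG1 to ESPL1, securin to separase, was 0.97, 0.82, 0.79 and 0.69 in A549 DMSO libraries and 1.80, 1.84, 2.04 and 2.06 with AMG900. All AMG900 libraries were higher and the mean difference was 1.12. An exact permutation test over the 8 libraries gave its smallest possible two-sided p of 0.0286, which became 0.0571 after adjustment over 6 ratios. At that smallest p the adjusted value depends only on the other ratios, so it does not decide whether this ratio changed. In H1792 the same ratio was 3.98, 3.74 and 3.67 with DMSO and 3.79, 3.81 and 3.79 with AMG900. The groups overlapped, with a mean difference of -0.0025 (exact permutation p = 1), and 3 against 3 libraries cannot go below p = 0.1. With the GC trend taken out the difference was 1.53 in A549, with all AMG900 libraries higher, and 0.33 in H1792, with overlapping groups.

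The log2 ratios of CDCA5 to SMC3 and ESCO2 to SMC3 were lower in every A549 AMG900 library than in any DMSO library, with mean differences of -1.69 and -3.59 (exact permutation p = 0.0286 and adjusted p = 0.0571 for each). In H1792 the first overlapped between the groups (-0.033, exact permutation p = 0.8), but with the GC trend taken out it was -0.76 and lower in all 3 AMG900 libraries (exact permutation p = 0.1, adjusted p = 0.15), and the second was lower in all 3 AMG900 libraries (-0.82, exact permutation p = 0.1). SMC1A to SMC3 overlapped between the groups in both lines (-0.26 in A549 and -0.020 in H1792), and with the GC trend taken out it was -0.69, overlapping, in A549 and -0.51, lower in all AMG900 libraries, in H1792. STAG1 to STAG2 also overlapped in both (0.36 and -0.082, and 0.27 and -0.32 with the GC trend taken out). RAD21 to SMC3 overlapped in A549 (-0.11) and was lower in all 3 H1792 AMG900 libraries (-0.42, exact permutation p = 0.1).

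**Figure D4:**
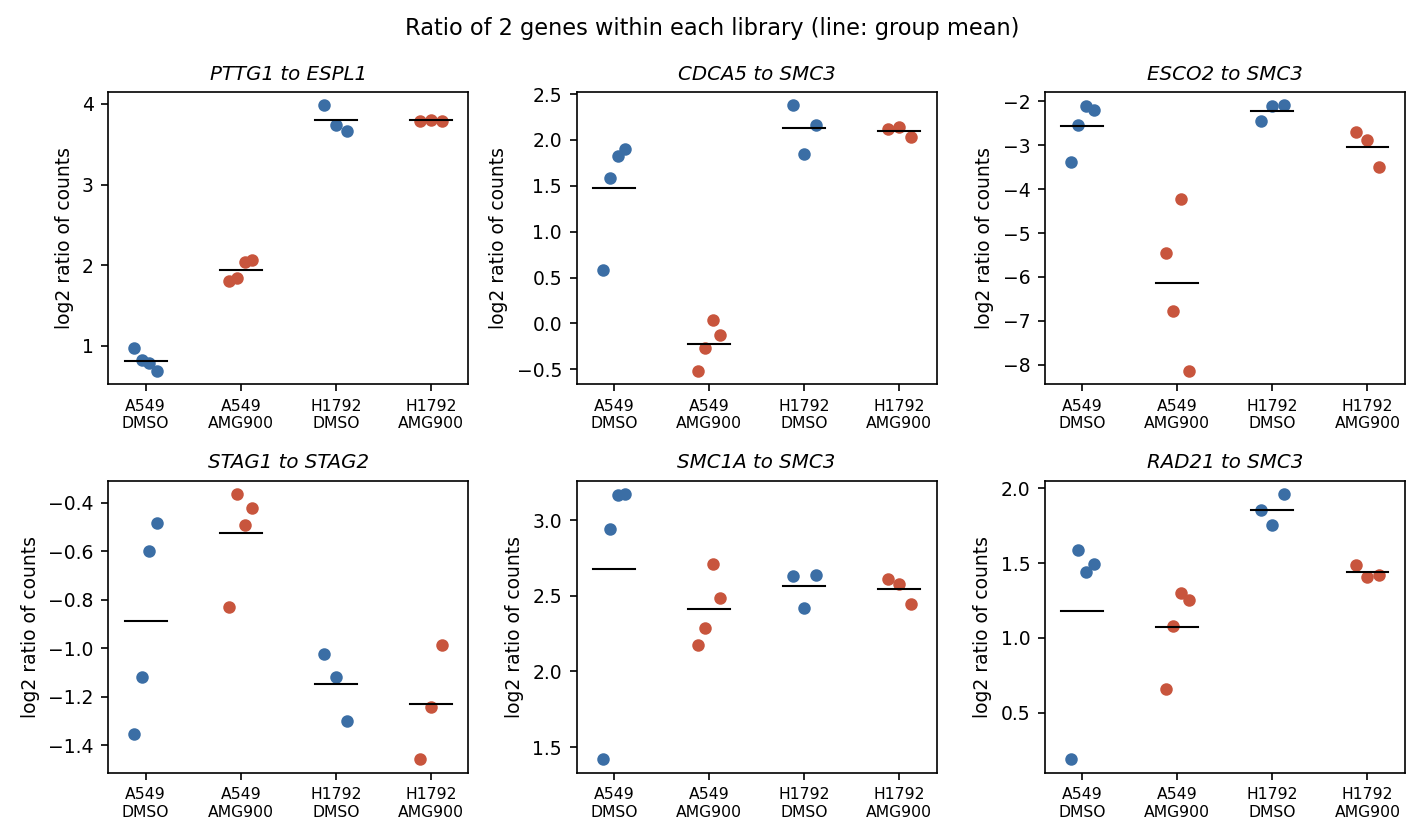
Log2 ratio of the counts of 2 genes within each library (vertical axis, 1 panel per pair) for the 4 groups, with a point per library and a line at the group mean. The securin to separase ratio is 0.69 to 0.97 in A549 with DMSO, 1.80 to 2.06 with AMG900, and between 3.67 and 3.98 in all H1792 libraries.

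Per kb of transcript, which allows genes to be compared, PTTG1 was the most abundant member in all 4 groups and ESCO2 the least. In A549 with DMSO the means were 152 ± 11.4 CPM per kb for PTTG1 (SD, n = 4), 30.3 ± 1.41 for CDCA5, 17.9 ± 2.23 for SMC1A, 16.8 ± 1.87 for RAD21 and 9.29 ± 0.51 for ESPL1. SMC3 (5.33 ± 2.84), STAG2 (4.22 ± 1.01), STAG1 (2.28 ± 0.14) and ESCO2 (1.21 ± 0.12) followed. Ranges of neighbours overlapped for SMC1A and RAD21, ESPL1 and SMC3, and SMC3 and STAG2. Without DMSO replicate 1, SMC3 was at 3.91 ± 0.33 CPM per kb (3.65 to 4.29, n = 3), apart from ESPL1. With AMG900, ESPL1 dropped from rank 5 to rank 8 of 9 in A549, at 1.09 ± 0.14 CPM per kb, below STAG1 at 1.53 ± 0.18, and their ranges did not overlap.

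In H1792 with DMSO the order was PTTG1 at 458 ± 42.2 CPM per kb (SD, n = 3), CDCA5 at 27.1 ± 1.83, RAD21 at 15.2 ± 1.29, SMC1A at 9.32 ± 0.44, ESPL1 at 3.55 ± 0.09, SMC3 at 2.78 ± 0.35, STAG2 at 2.44 ± 0.34, STAG1 at 1.12 ± 0.15 and ESCO2 at 0.894 ± 0.21. Only the ranges of SMC3 and STAG2 and of STAG1 and ESCO2 overlapped between neighbours. The order was the same with AMG900 in H1792.

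**Figure D5:**
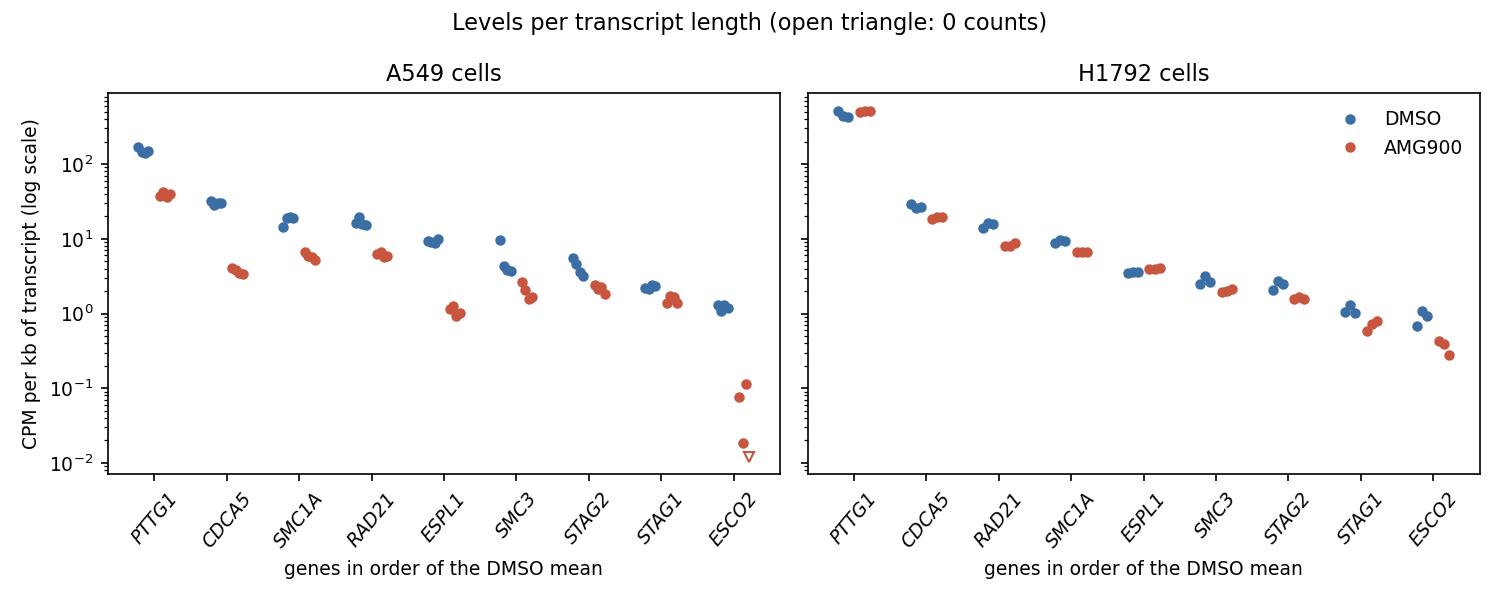
Level of each member as CPM per kb of transcript (vertical axis, log scale) in each A549 and H1792 library, with genes ordered by the DMSO mean of the line. The open triangle marks the A549 AMG900 library with 0 ESCO2 counts. PTTG1 is highest in every library, and ESPL1 falls below STAG1 with AMG900 in A549.

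Between DMSO libraries, 5 members were called lower in H1792 than in A549 and 1 higher, where 31.9% of 14769 genes were called lower and 34.2% higher, so the share of members called is near that of all genes. The lines were sequenced to different depths and deposited separately, so line and sequencing cannot be told apart. Scaled over all 14 libraries, PTTG1 stood at 98.2 to 113 CPM in A549 DMSO libraries and at 310 to 370 CPM in H1792, a log2 difference of 1.70 ± 0.07 (SE, edgeR adjusted p = 1.15e-13). ESPL1 went the other way, from 56.1 to 64.3 CPM in A549 to 23.4 to 24.4 CPM in H1792 (-1.29 ± 0.09, adjusted p = 1.97e-10), and neither gene's groups overlapped. The core subunits STAG1 (-0.93 ± 0.15, adjusted p = 1.18e-05), SMC1A (-0.85 ± 0.09, adjusted p = 8.53e-08), SMC3 (-0.75 ± 0.24, adjusted p = 0.00854) and STAG2 (-0.66 ± 0.15, adjusted p = 5.93e-04) were lower in H1792.

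The SMC3 difference was -0.39 (adjusted p = 0.018) without A549 DMSO replicate 1. It was also not called without A549 AMG900 replicate 2 or 4, any H1792 AMG900 replicate, or H1792 DMSO replicate 1 or 3 (adjusted p 0.0103 to 0.0497), nor from the 7 DMSO libraries alone (-0.82, adjusted p = 0.0224). STAG2 was not called without H1792 DMSO replicate 1 (-0.49, adjusted p = 0.0111), which left 3 members called lower, where 4117 of 15005 genes were. RAD21 (-0.043, 95% interval -0.23 to 0.15), CDCA5 (-0.060, -0.22 to 0.098) and ESCO2 (-0.34, -0.95 to 0.28) were not called.

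The other genes of the pathway were counted from fixed lists, beside the shares of all genes given above (17.8% lower and 17.2% higher in A549, 18.8% and 16.2% in H1792), and the GC correction of these lists was added after seeing the data. Cohesin is loaded by NIPBL and MAU2, released by WAPL with PDS5A and PDS5B, and halted on chromatin by CTCF, while ESCO1 and HDAC8 add and remove the acetyl mark on SMC3. Of 7 such genes tested in A549, 3 were called lower (CTCF -1.12 ± 0.08, WAPL -0.90 ± 0.21 and PDS5A -0.77 ± 0.12, SE). Of 8 tested in H1792, ESCO1 (-1.55 ± 0.26) and PDS5A (-0.43 ± 0.10) were called lower. NIPBL had estimates of -0.41 in A549 and 0.32 in H1792, and passed in neither (adjusted p 0.0618 and 0.016). The correction for GC content ended the calls of WAPL in A549 (-0.50, adjusted p = 0.0382) and PDS5A in H1792 (-0.12, adjusted p = 0.183), and called NIPBL (0.71), PDS5B (0.75) and HDAC8 (0.27) higher and CTCF (-0.25) and MAU2 (-0.21) lower in H1792. ESCO1, the acetyltransferase that works outside S phase, had only 1 to 12 counts in A549 and was not tested there. CTCF fell more in A549 than in H1792 by the interaction test, by 0.77 ± 0.11, the 1 gene of this list that was called as counted. With the GC correction CTCF stayed called (0.83) and NIPBL was called too (0.69, adjusted p = 0.00903).

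The genes that protect centromeric cohesion were also far lower in A549 with AMG900. SGO1 (listed as SGOL1) and SGO2 (listed as SGOL2) shield cohesin at centromeres, and BUB1 is a kinase that helps to place them there. HASPIN (listed as GSG2) is another kinase of this list. In A549, 4 of 5 genes were called lower, with log2 fold changes of -3.65 ± 0.30 for SGOL1, -3.60 ± 0.24 for BUB1, -3.23 ± 0.21 for GSG2 and -3.07 ± 0.55 for SGOL2, while PPP2R1A was at 0.18 (adjusted p = 0.0337). In H1792 only SGOL2 was called (-1.08 ± 0.17), a call that the GC correction ended (-0.34, adjusted p = 0.137), and the estimates for SGOL1, BUB1 and GSG2 were -0.18, -0.21 and 0.018. The difference between the lines was called for SGOL1, GSG2 and BUB1, at 3.44, 3.17 and 3.34, and with the GC correction for SGOL2 as well (2.15, adjusted p = 0.00774).

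Factors that build cohesion at the replication fork were lower in A549 for 6 of 7 genes, from -3.84 ± 0.50 for DSCC1 and -3.20 ± 0.30 for WDHD1 to -0.60 ± 0.09 for DDX11. In H1792, 5 of 7 were called lower, led by WDHD1 (-1.20 ± 0.15), DSCC1 (-0.84 ± 0.15) and TIPIN (-0.83 ± 0.11). CHTF18 (0.42 ± 0.07) and the helicase DDX11 (0.26 ± 0.06) were called higher there, and both differed between the lines (2.42 and 0.78). DSCC1 and CHTF18, partners in the alternative clamp loader that acts with cohesin acetylation, moved in opposite directions in H1792 as counted. After GC correction CHTF18 (0.075, adjusted p = 0.205), DDX11 (-0.0011, adjusted p = 0.991) and DSCC1 (-0.45, adjusted p = 0.0365) were not called in H1792, and all 7 genes were called lower in A549, including CHTF8 (-0.47, adjusted p = 0.00774).

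All 8 condensin subunits, which compact mitotic chromosomes, were called lower in A549 (median -2.51, from -3.43 for NCAPG to -0.84 for NCAPH2), and 4 of 8 were called lower in H1792 (SMC2 -1.18, SMC4 -0.75, NCAPG2 -0.53 and NCAPD3 -0.26). Corrected for GC content, all 8 were again lower in A549 and 5 in H1792, where SMC4 was not called (-0.17, adjusted p = 0.0462) and NCAPD2 (-0.17) and NCAPH2 (-0.40) were. The SMC5/6 complex, which acts in DNA repair, had 2 of 7 genes called lower and 1 higher in each line, near the shares of all genes. NSMCE4A (-1.14 and -0.63) and SMC6 (-1.11 and -0.83) were lower in A549 and H1792, NSMCE3 was higher in A549 (0.30) and NSMCE2 in H1792 (0.40). The SMC6 call in A549 was just inside the threshold (adjusted p = 0.00993), and the GC correction ended it (-0.59, adjusted p = 0.137) and that in H1792 (-0.32, adjusted p = 0.0607). Of the 4 meiotic subunits, 1 was tested in A549 and 3 in H1792, and none was called. REC8 was tested in both lines (0.15 and 0.18). SMC1B (0.36, adjusted p = 0.385) and STAG3 (-0.70, adjusted p = 0.125) were tested in H1792 alone. SMC1B had at most 1 count per A549 library and 25 to 51 in H1792, STAG3 had at most 8 and 14 to 37, and RAD21L1 had at most 1 count in any library.

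The PTTG1 copies PTTG2 and PTTG3P are near-identical in sequence to securin, so reads could be split among them. In H1792, PTTG3P had 737, 414 and 348 counts with DMSO and 188, 140 and 207 with AMG900, a log2 fold change of -1.67 ± 0.18 (SE, edgeR adjusted p = 4.08e-05). PTTG2 had 55, 31 and 27 counts with DMSO and 14, 14 and 18 with AMG900 (-1.46 ± 0.34, adjusted p = 0.00511). All AMG900 libraries were below all DMSO libraries in both, and with the GC correction PTTG2 was not called (-1.26, adjusted p = 0.0111). Together the copies took 3.25%, 2.79% and 2.75% of the reads on the 3 genes with DMSO and 0.727%, 0.83% and 1.04% with AMG900, while PTTG1 itself did not fall. Summing the 3 genes, an alternative added after seeing the data, gave 0.12 (adjusted p = 0.153) in H1792 and -1.97 in A549, where the copies had at most 18 counts per library and were not tested.

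The genes whose pattern over the 14 libraries was closest to each member, by the root mean square difference of log2 CPM centred on each gene's own mean, are given as a description. For ESPL1 they were CDC6 (0.19), MELK (0.20) and SPAG5 (0.23), for CDCA5 WDR62 (0.15), TK1 (0.16) and KIAA0101 (0.16), and for PTTG1 CENPW (0.18), CHTF18 (0.24) and NUDT1 (0.24). ESCO2 had no equally close gene by this measure, with ANLN (0.52), ATAD2 (0.59) and DSCC1 (0.66) nearest. It had only 0 to 8 counts per A549 AMG900 library, and its median difference from all genes (2.08) was the largest among the members. The core subunits lay beside other genes, SMC1A beside DNAJC9 (0.17), UNG (0.18) and AIDA (0.19), RAD21 beside HNRNPH1 (0.16), SRSF7 (0.17) and JADE1 (0.18), and SMC3 beside BDP1 (0.19) and SKA2 (0.22). STAG1 was nearest to C11orf58 (0.14), NPTN (0.14) and MFHAS1 (0.15), and STAG2 to BCLAF1 (0.12), YWHAQ (0.13) and ATAD1 (0.14). The median difference over all genes was 0.79 to 2.08, depending on the member.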

How the data were processed

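RNA was sequenced on an Illumina NextSeq instrument after RNeasy purification. The authors deposited raw counts, the number of reads on each gene symbol in each library, without normalization, in a table per cell line. Per the labels, STAR and HTSeq were used with hg19 (GRCh37), without versions, and annotation and strand setting are not given in the sources used here. Each table has 26760 entries, of which 28 in H1792 bear calendar dates (0.101% to 0.117% of counts) and were left out. Replicates differed by more than counting error (chi-square per gene 3.24 to 45.2), with a biological coefficient of variation of 12.8% in A549 and 9.60% in H1792.

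R 4.3.3, edgeR 4.0.16 and DESeq2 1.42.0 were used, with Python 3.11.15 and scipy 1.17.1 for exact permutation tests on log2 ratios (pseudocount 0.5). Genes were kept by filterByExpr, scaled by TMM and tested by the edgeR quasi-likelihood test at an FDR of 0.01, per line for treatment and over all 14 libraries for interaction and baseline. Log2 CPM used a prior count of 2. Transcript length, GC content and positions came from the GENCODE annotation of GRCh37 (22365 symbols matched as current and 1250 as older names). Steps were tested on simulated data. The members and gene lists were chosen with earlier results of these data known. Named genes are the 9 members, the genes of the listed pathways, and for each member the 3 genes nearest in pattern over the 14 libraries. A gene that this rule names is not reported here. Same-numbered DMSO and AMG900 libraries did not deviate together (correlations -0.060 to 0.043), so no replicate term was used. Alternatives were DESeq2, other scalings and filters, an FDR of 0.05, GC content and length corrections (splines with 5 degrees of freedom), a replicate block, other sample sets and each library left out. The GC correction of the pathway lists and of the ratios, and the sum of PTTG1 with its copies, were added after seeing the data.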

Additional observations from a re-analysis of the deposited data

Results flagged for a closer look

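Sets of values were examined in the A549 DMSO and A549 AMG900 groups, and not in H1792, whose groups hold 3 libraries each. Of these 30 sets, 4 held a library far from the others of its group, where chance flags about 5%. In each of the 4 that library was A549 DMSO replicate 1. It had the lowest SMC1A level (141 CPM, others 182 to 189) and the highest SMC3 level (52.9 CPM, others 20.2 to 23.7). Its log2 ratios of RAD21 to SMC3 (0.19, others 1.44 to 1.59) and SMC1A to SMC3 (1.42, others 2.94 to 3.17) were the lowest. All 4 come from SMC3 and SMC1A in the same library, which was also the smallest of the 14.

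The effect of AMG900 differed between the lines by the edgeR interaction test for 6 members. The log2 fold change in H1792 minus that in A549 was 1.06 for SMC1A, 0.49 for RAD21, 3.11 for ESCO2, 2.47 for CDCA5, 2.04 for PTTG1 and 3.18 for ESPL1.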

How the results depend on the processing

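Leaving out each library in turn, the members called lower numbered 8 to 9 in A549 and 5 to 7 in H1792, and those called higher 0 in A549 and 0 to 1 in H1792, the 1 being PTTG1 without DMSO replicate 1. Calls over all genes also moved with the library left out. In A549 1846 (of 13232 tested) to 2978 (of 13452) were called lower and 1845 to 2876 higher. In H1792 1853 (of 15142) to 3656 (of 15180) were called lower and 1382 to 3047 higher. Between the lines, 5 to 6 members kept a called difference in the same direction and 0 in the other. Of the 14644 to 15016 genes tested in these fits, 602 to 1142 were called in that direction and 965 to 1918 in the other. Between DMSO groups 3 to 5 members were called lower and 1 higher, where 4117 to 4903 of all genes were called lower and 4765 to 5286 higher. CDCA5, SMC1A, RAD21 and ESPL1 kept their side of the threshold within each line under all alternatives. With the GC correction, and with GC content and length, 3 members were called lower in H1792, where 3256 and 3272 of 14373 genes were. With both, SMC3 (0.119), STAG2 (0.026) and ESPL1 (-0.0017) of H1792 changed sign, as SMC3 (0.069) and ESPL1 (-0.087) did with GC content alone. Medians with the GC correction were -0.86 (core) and -3.30 (cycle-regulated) in A549 and -0.34 and -0.39 in H1792, and the last was -0.24 with total counts.

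The baseline difference of RAD21 changed sign without a filter (0.012), with at least 10 counts in every library (0.023), with GC content (0.067) and with GC content and length (0.086), and ranged from -0.083 to 0.085 with 1 library left out. That of CDCA5 was 0.0043 with at least 10 counts. The cause was not tested, and none of these estimates was called. Ratios with 1 library left out ranged as follows in A549: from -0.44 to 0.032 for RAD21 to SMC3, from 1.08 to 1.17 for PTTG1 to ESPL1, from -1.99 to -1.55 for CDCA5 to SMC3, from -4.23 to -2.92 for ESCO2 to SMC3, from 0.21 to 0.50 for STAG1 to STAG2 and from -0.68 to -0.094 for SMC1A to SMC3. In H1792 the ranges were -0.068 to 0.090 for PTTG1 to ESPL1, -0.17 to 0.091 for CDCA5 to SMC3, -0.20 to 0.032 for STAG1 to STAG2, -0.090 to 0.029 for SMC1A to SMC3, -0.98 to -0.58 for ESCO2 to SMC3 and -0.47 to -0.37 for RAD21 to SMC3.

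In the pathway lists, 18 estimates changed sign with the GC correction, of which DDX11 was called before and MAU2 in H1792 after it. In A549 they were NIPBL (0.041), MAU2 (-0.184), REC8 (-0.179) and SMC5 (0.097). In H1792 they were MAU2 (-0.206), WAPL (0.0034), SGOL1 (0.244), GSG2 (-0.152), BUB1 (0.044), PPP2R1A (-0.047), DDX11 (-0.0011), REC8 (-0.074), NCAPG (0.297), SMC5 (0.334) and NSMCE3 (0.256), and between the lines MAU2 (0.031), CHTF8 (0.088) and REC8 (0.153). The ratio of PTTG1 to ESPL1 in H1792 turned to 0.335.

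With a replicate block, STAG1 in A549 (-0.58, adjusted p = 0.0101) and the RAD21 difference between the lines (0.49, adjusted p = 0.0126) were not called, 8 members were called lower in A549 and 7 in H1792, and no other call of a member changed. The block called 1984 of 13174 genes lower in A549 and 2618 of 15017 in H1792. The replicate numbers do not pair the libraries, so the result with the block is not read as a weaker effect. Depth limits ESCO2 most, with at most 8 counts per A549 AMG900 library.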
